A study of Homo sapiens with 6 samples.

Results

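The expression of 9 complement genes was followed in Huh7, an established human hepatoma cell line, with and without a guide against HNRNPA2B1. The genes were chosen as named complement proteins and their soluble or membrane regulators, C1R, C1S, C3, C5, CFB, CFI, C4BPA, C4BPB and CD55. Each was found once, by its Ensembl ID, among the 25202 rows of the deposited table of gene counts, and all 9 passed the filter on low counts that left 16331 rows for testing. The control group (3 libraries, genotype WT) carried the guide labelled sgNC, and the knockout group (3 libraries, genotype KO) the guide labelled sghnRNPA2B1. The labels give cell culture as the treatment in both groups and name no other agent. The gene targeted codes for a mostly nuclear protein that binds RNA. Whether the knockout line is 1 clone, where the guide cuts and whether each replicate had its own culture are not given in the labels. All p-values therefore measure the spread among these libraries alone, and that spread may be technical.

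Complement is a cascade of plasma proteins, most of them made by hepatocytes, that marks microbes and damaged cells for uptake or lysis. C1r and C1s are the proteases of the classical pathway, C3 is the central protein on which all pathways meet, factor B is the protease of the alternative pathway and C5 starts the lytic pore. The cascade is held back in plasma by factor I and C4b-binding protein, and on the cell surface by CD55. Several of these genes are known acute-phase genes of the liver, induced by interleukin-6 or interferon.

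Totals ran from 32517757 to 38870244 counts per library. HNRNPA2B1 had 32755 to 44149 counts in the controls and 8232 to 8729 in the knockout libraries, a log2 fold change of −2.40 ± 0.14 (SE). Levels are given as CPM, counts scaled to the size of the library with TMM factors, with the SD over 3 libraries. The threshold for a call was an adjusted p of 0.05 in edgeR's quasi-likelihood test over all 16331 genes, and by that rule 40.1% of all genes tested were called, 21.1% higher and 19.0% lower in the knockout. All 10 hepatocyte markers examined were present in every library, albumin at a mean of 4899 CPM in the controls. Their summed level was 18200 to 21890 CPM in the controls and 10990 to 11950 CPM in the knockout. Of the 10, 9 were called lower and TTR was not called. Among those lower were the plasma protein genes SERPINA1 and FGB, named after their values were seen. Their log2 fold changes were −1.64 ± 0.12 and −0.81 ± 0.13 (SE; edgeR adjusted p = 1.09e-05 and 0.000968). In bulk RNA, fewer cells of a type and less RNA per cell cannot be told apart.

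Promoters were read for the members because several moved in the same direction. RefSeq windows of 250 bases before to 50 bases from the start on were held for 7 of the 9 genes, C3 and C1S being the other two, in 11 windows since some genes have several starts. Motifs of factors known to act on liver acute-phase genes were searched on both strands, STAT (TTCNNNGAA), an interferon response element (GAAANNGAA), C/EBP (TTGCNNAA) and NF-kB (GGGANTTTC). The windows below belong to the gene with the largest rise, a classical-pathway protease and factor B, the 3 members with a STAT match. They are written 5′ to 3′ on the gene's strand in lower case, with every match to these motifs in capitals.
C4BPB promoter, GRCh38.p14 chr1:207089033-207089332, plus strand: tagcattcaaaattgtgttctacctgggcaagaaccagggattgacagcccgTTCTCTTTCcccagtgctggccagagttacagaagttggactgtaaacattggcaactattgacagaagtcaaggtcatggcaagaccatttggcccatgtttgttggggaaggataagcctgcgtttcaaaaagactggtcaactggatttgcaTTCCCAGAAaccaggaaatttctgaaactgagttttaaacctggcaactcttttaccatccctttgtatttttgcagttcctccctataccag
C1R promoter, GRCh38.p14 chr12:7091844-7092143, minus strand: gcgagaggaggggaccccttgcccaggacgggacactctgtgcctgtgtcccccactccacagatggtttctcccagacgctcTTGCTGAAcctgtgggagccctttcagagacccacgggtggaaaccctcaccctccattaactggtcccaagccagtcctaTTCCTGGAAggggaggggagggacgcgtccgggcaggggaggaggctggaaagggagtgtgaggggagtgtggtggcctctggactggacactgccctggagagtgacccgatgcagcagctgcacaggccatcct
CFB promoter, GRCh38.p14 chr6:31945845-31946144, plus strand: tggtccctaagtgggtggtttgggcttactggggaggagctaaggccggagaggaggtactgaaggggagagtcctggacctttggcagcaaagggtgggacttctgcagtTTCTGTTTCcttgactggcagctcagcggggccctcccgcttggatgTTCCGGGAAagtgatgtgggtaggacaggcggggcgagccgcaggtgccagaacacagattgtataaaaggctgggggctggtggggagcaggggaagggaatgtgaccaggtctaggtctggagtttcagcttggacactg

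The capitals in C4BPB mark an interferon element match at bases −198 to −190 and a STAT match at −43 to −35, counted from the start base as 0. The window of another C4BPB start overlaps it and holds the same 2 matches, and the remaining C4BPB window holds none. C1R has a C/EBP match at −167 to −160 and a STAT match at −86 to −78. Its other window, not printed, has a C/EBP match alone. CFB has an interferon element match at −139 to −131 and a STAT match at −92 to −84. Over all members, 3 of the 7 genes had a STAT match in at least 1 window, 2 an interferon element match, 1 a C/EBP match and 0 an NF-kB match. C5, C4BPA and CD55, all called higher below, and CFI had no match to any of these motifs. Among all 27305 genes in the table, the shares with a match in any of their windows were 9.38% for STAT, 9.86% for the interferon element, 12.7% for C/EBP and 1.56% for NF-kB. Counted by window, 4 of the members' 11 held the STAT letters and 3 the interferon element, against 7.66% and 8.11% of all 35116 windows, and C4BPB gave 2 of each through overlapping windows. A match is a description of letters, not of a bound site, and no binding was measured.

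Of the 9 complement genes, 7 rose in the knockout and none fell. At an unadjusted p below 0.05 none was lower either, nor by DESeq2 or limma-voom. For those 7 genes all knockout libraries lay above all controls, which held for 29.6% of all genes tested, while 24.8% of them had every knockout library below every control. The median log2 fold change of the 9 genes was 0.93, and that of all genes tested 0.05. For the 29 other complement genes tested, described below, it was −0.0031. The 9 genes were chosen with earlier results of these data known, so their contrast with all genes is no test of complement genes as a class. Of the 9, C4BPB rose most, followed by C1R and C1S. C3 and CFI did not pass the test.

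**Figure D1:**
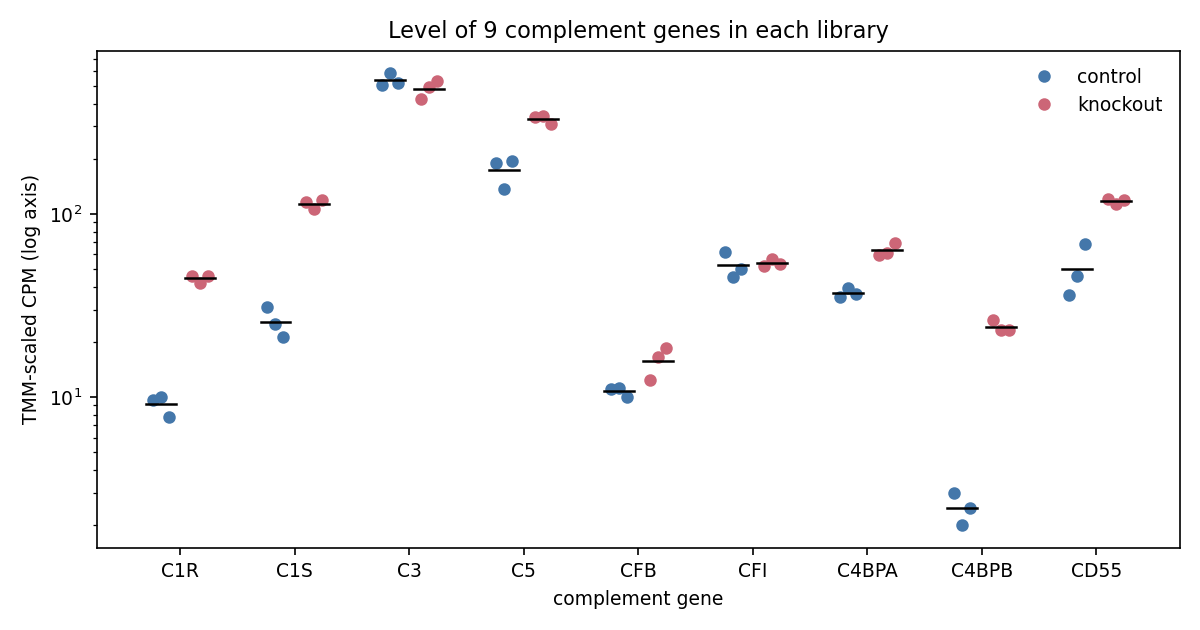
TMM-scaled CPM (log axis) of each complement gene in the 3 control and 3 knockout libraries; points are libraries and bars are group means. The knockout points lie above all control points for 7 genes, while those of C3 and CFI overlap the controls.

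The proteases of the classical pathway rose together. C1R (ENSG00000159403, chromosome 12), whose product activates C1s, stood at 9.68, 9.95 and 7.78 CPM in control replicates 1, 2 and 3 and at 46.0, 41.7 and 45.6 CPM in knockout replicates 1, 2 and 3. The groups were far apart, and the libraries within each were close together. Its log2 fold change was 2.28 ± 0.14 (SE; edgeR adjusted p = 3.16e-06). C1S (ENSG00000182326, chromosome 12), the protease that cleaves C4 and C2, stood at 30.9, 25.0 and 21.4 CPM in the controls and 116, 106 and 120 CPM in the knockout. Every knockout library again lay above every control. It rose 4.41-fold, with a 95% interval of 3.53 to 5.52 (log2 fold change 2.14 ± 0.15 SE, edgeR adjusted p = 6.22e-06).

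The balance between both proteases was measured within each library, where no scaling enters. The ratio of C1R to C1S counts was 0.313, 0.398 and 0.365 in the controls and 0.396, 0.395 and 0.381 in the knockout. The log2 ratio averaged −1.49 ± 0.18 in the controls and −1.36 ± 0.030 in the knockout (SD, n = 3 each; exact permutation p = 0.4, 2-sided, where 0.1 is the smallest this design allows). The values of the groups overlapped. A p of this size does not show that the balance was equal. C1RL, a C1r-like protease gene next to C1R, had 18.3, 18.8 and 20.6 CPM in the controls and 48.8, 39.5 and 49.0 CPM in the knockout and rose 2.38-fold (edgeR adjusted p = 7.04e-05). The nearest protein-coding gene on the other side of the pair, LPCAT3, an acyltransferase of phospholipids, fell by 0.62 ± 0.15 (SE) on the log2 scale (edgeR adjusted p = 0.00788).

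C3 (ENSG00000125730, chromosome 19) was the most abundant member and did not pass the test. It stood at 507, 585 and 520 CPM in control replicates 1, 2 and 3 and at 422, 495 and 529 CPM in the knockout. The lowest value was in knockout replicate 1 and the highest in control replicate 2, and the groups overlapped. The log2 fold change was −0.16 with a 95% interval of −0.41 to 0.099 (edgeR adjusted p = 0.304), and its sign turned with library size alone (0.027) and with cyclic loess (0.13). C5 (ENSG00000106804, chromosome 9), the homologous protein whose cleavage starts the lytic complex and releases C5a, had 189, 137 and 193 CPM in the controls and 338, 341 and 308 CPM in the knockout. Control replicate 2 was the lowest of all, and each knockout library lay well above each control. C5 rose 1.90-fold (95% interval 1.54 to 2.35; edgeR adjusted p = 0.000639).

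Factor B was the least certain of the rises. CFB (ENSG00000243649, chromosome 6) had 11.1, 11.2 and 9.97 CPM in the controls and 12.3, 16.5 and 18.4 CPM in the knockout. Knockout replicate 1 lay just above the controls, and the other knockout libraries stood clearer. The log2 fold change was 0.55 ± 0.17 (SE; edgeR adjusted p = 0.0259). The call was lost without control replicate 1 (adjusted p = 0.0579), control replicate 3 (0.0629), knockout replicate 2 (0.0943) or knockout replicate 3 (0.130), and under cyclic loess (0.109). Over all alternatives its adjusted p lay between 0.00644 and 0.130. C2, the classical-pathway counterpart of factor B encoded beside it, rose 1.63-fold, from 18.3 ± 1.77 to 29.95 ± 2.66 CPM (SD, n = 3 each; edgeR adjusted p = 0.00185).

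The chains of C4b-binding protein both rose, but by different amounts. C4BPB (ENSG00000123843, chromosome 1), the beta chain, which binds protein S of the coagulation system, had 2.99, 2.00 and 2.49 CPM in the controls and 26.2, 23.3 and 23.3 CPM in the knockout. These values rest on 61 to 111 counts per control library and 816 to 1041 per knockout library. It rose 9.67-fold (95% interval 7.33 to 12.8; log2 fold change 3.27 ± 0.18 SE; edgeR adjusted p = 2.06e-06). C4BPA (ENSG00000123838, chromosome 1), the alpha chain, which binds C4b and serves as cofactor of factor I, had 35.1, 39.2 and 36.3 CPM in the controls and 59.3, 61.5 and 68.9 CPM in the knockout. It rose 1.71-fold (95% interval 1.45 to 2.03; edgeR adjusted p = 0.000482). The groups did not overlap for either chain. RefSeq places pseudogenes of C4BPA beside it, so its counts are uncertain to the extent that reads are shared.

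C4BPA counts were 11.7, 19.5 and 14.5 times those of C4BPB in control replicates 1, 2 and 3, and 2.26, 2.64 and 2.96 times in the knockout. The log2 ratio was 3.90 ± 0.37 in the controls and 1.38 ± 0.20 in the knockout (SD, n = 3 each), and the 2 groups did not overlap. The ratio was thus 5.71-fold lower in the knockout, with an exact permutation p of 0.1 (2-sided), the smallest that 3 libraries against 3 allow.

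**Figure D2:**
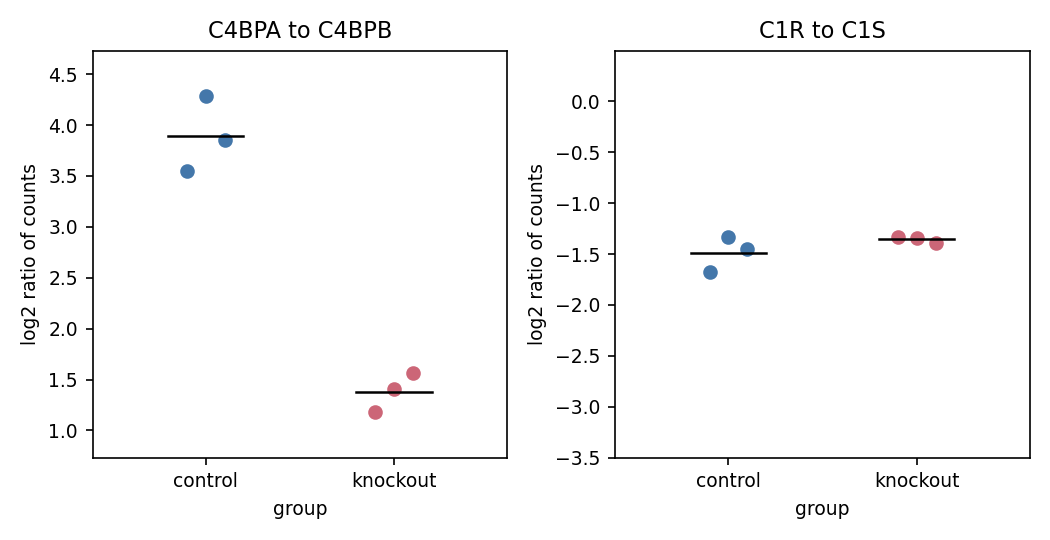
Log2 ratio of counts within each library for C4BPA to C4BPB (left) and C1R to C1S (right), with points for libraries and bars for group means; both panels span the same range of log2 units. The C4BPA to C4BPB ratio averages 3.90 in controls and 1.38 in the knockout with no overlap, while the C1R to C1S values overlap.

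Among the other regulators of the set, the membrane protein rose and the plasma protease did not pass. CD55 (ENSG00000196352, chromosome 1), decay-accelerating factor, which breaks up C3 and C5 convertases on the cell's own surface, had 36.1, 45.8 and 68.4 CPM in the controls and 120, 113 and 119 CPM in the knockout. The controls were spread widely, with control replicate 3 highest, and the knockout libraries were close together and above all of them. CD55 rose 2.34-fold (95% interval 1.73 to 3.17; edgeR adjusted p = 0.00098), and its log2 fold change of 1.23 ran from 1.00 without control replicate 1 to 1.495 without control replicate 3. CFI (ENSG00000205403, chromosome 4), factor I, which inactivates C3b and C4b, had 61.8, 45.0 and 50.2 CPM in the controls and 51.8, 56.5 and 53.2 CPM in the knockout. All knockout values lay within the range of the controls. Its log2 fold change was 0.040 with a 95% interval of −0.25 to 0.33 (edgeR adjusted p = 0.829), and the sign turned without control replicate 2 or control replicate 3.

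The order of levels among the 9 genes was compared as CPM per kilobase of exon. In the controls C3 came first at 102 ± 7.94, followed by C5 at 31.7 ± 5.73, CFI at 22.2 ± 3.64, C4BPA at 16.4 ± 0.941 and CD55 at 12.6 ± 4.17 (CPM per kilobase, SD, n = 3). C1S (7.02 ± 1.32), CFB (3.75 ± 0.231), C1R (3.27 ± 0.424) and C4BPB (2.04 ± 0.407) followed. Neighbours in that order whose libraries overlapped were C5 and CFI, C4BPA and CD55, and CFB and C1R. In the knockout C3 was still first, at 91.6 ± 10.5, and C5 second, at 60.2 ± 3.32. C1S, CD55 and C4BPA came next at 31.0 ± 2.00, 29.4 ± 0.960 and 28.2 ± 2.25, with overlap between C1S and CD55 and between CD55 and C4BPA. CFI (22.8 ± 1.03), C4BPB (19.8 ± 1.40), C1R (15.9 ± 0.857) and CFB (5.50 ± 1.09) closed the order. C4BPB thus moved from the lowest place to above C1R and CFB.

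**Figure D3:**
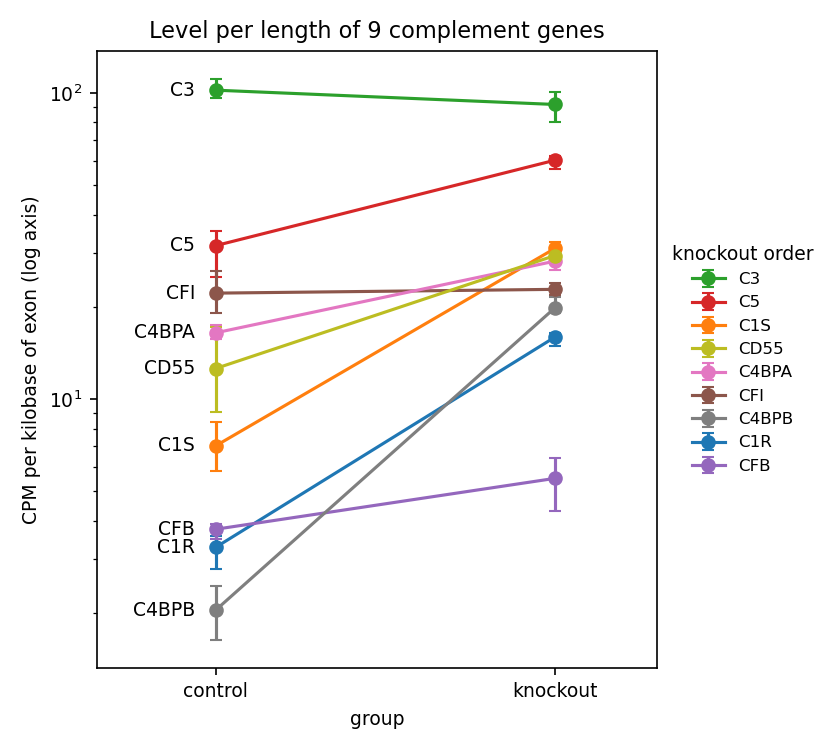
Mean CPM per kilobase of exon (log axis) of each gene in control and knockout libraries, with bars from the lowest to the highest of 3 libraries. C4BPB climbs from 2.04 to 19.8 and C1S from 7.02 to 31.0, while the ranges of C3 and of CFI overlap between the groups.

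Summed over the 9 genes, the level was 883, 900 and 910 CPM in control replicates 1, 2 and 3 and 1192, 1254 and 1285 CPM in the knockout. C3 supplied 57.1% to 65.0% of that sum in the controls and 35.4% to 41.2% in the knockout. Without C3 the sums were 315 to 390 CPM in the controls and 756 to 770 CPM in the knockout.

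The genes whose pattern over the 6 libraries came closest to that of C4BPB were BAAT, a bile acid conjugating enzyme, and CTSS, a lysosomal protease. Their log2 CPM, taken relative to the control mean, differed from that of C4BPB by a root mean square of 0.136 and 0.20, and no complement gene was among these 2 of 10011 candidates. The only member that was among the 2 closest genes to another was C1R, at 0.136 from C1S. As C3 had the lowest fold change, its closest genes were MICALL2 (0.043) and DUS1L (0.0468).

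Outside this set, 51 other complement genes were examined in 3 lists, and 29 had enough counts to be tested. Of those 29, 6 rose, 8 fell and 15 did not pass, with a median log2 fold change of −0.0031. Among all genes tested, 21.1% were called higher and 19.0% lower. Of 24 other components 16 were tested, and 4 rose (COLEC10, C1RL, C2 and CFD) and 2 fell (C8A and MBL2). C8A, the alpha chain of the C8 pore subunit, had 17.6, 17.9 and 18.4 CPM in the controls and 5.24, 4.62 and 5.17 CPM in the knockout and fell 3.59-fold (edgeR adjusted p = 1.45e-05). MBL2, mannose-binding lectin, which starts the lectin pathway, fell from 49.2 ± 6.72 to 23.6 ± 3.84 CPM (SD, n = 3 each; edgeR adjusted p = 0.000506). CFD, factor D, which cleaves factor B, rose by 0.68 ± 0.22 (SE) on the log2 scale (edgeR adjusted p = 0.032). That call was lost without control replicate 2 or 3, without knockout replicate 2 or 3 and with cyclic loess, at adjusted p from 0.0513 to 0.119.

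COLEC10, a collectin of the lectin pathway, had 3 counts over the controls and 83 over the knockout libraries, a ratio of 24.5 with an exact counting interval of 8.08 to 121 (edgeR adjusted p = 0.00303). All 3 control counts were in control replicate 1. The size of its change is therefore poorly set, with a fitted log2 fold change of 4.48, of 7.67 without control replicate 1 and of 2.50 under cyclic loess, and the 1 CPM filter left it untested. C7, a pore component, had a log2 fold change of −1.19 ± 0.45 (SE) and COLEC12, a scavenger receptor, one of 0.82 ± 0.34, and neither passed (edgeR adjusted p = 0.0601 and 0.082). C7 did pass with the 1 CPM filter (0.0467), DESeq2 (0.0380), limma-voom (0.0462), cyclic loess (0.00844) and without knockout replicate 1 (0.0266). COLEC12 passed with library size alone (0.0374), limma-voom (0.0472) and without control replicate 3 (0.0147). C4A and C4B are near-identical copies, so their split is uncertain; both were under 3 CPM and neither passed. The genes of C1q, the recognition part of C1 made by macrophages, were too low to be tested, with 0 counts of C1QA in all libraries. C9, the pore-forming end of the cascade, had 0 counts over the control libraries and 29 over the knockout libraries. The 29 were 10, 16 and 3 in knockout replicates 1, 2 and 3. Set against a floor of 3 counts for the controls, C9 was 8.55-fold higher, leaving out counting error in the knockout count. It did not pass the filter on low counts; with no filter it was tested and called higher (edgeR adjusted p = 0.0366).

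Among the other regulators more genes fell than rose. Of 18 examined 11 were tested, and 6 fell, among them CLU, CPN1, CPN2 and C1QBP, and 1 rose. The median log2 fold change of the 11 was −0.48, and 19.0% of all genes tested were called lower and 21.1% higher. CPN2 and CPN1, the subunits of carboxypeptidase N, which trims the anaphylatoxins C3a and C5a, fell 2.32-fold and 1.71-fold (edgeR adjusted p = 0.000213 and 0.0102), and the CPN1 call was lost without knockout replicate 1 (0.054). Clusterin (CLU), which binds the terminal complex, fell from 1418 ± 258 to 899 ± 19.1 CPM (SD, n = 3 each; edgeR adjusted p = 0.00311; 0.102 with cyclic loess). C1QBP, a mitochondrial protein that also binds C1q, fell 1.77-fold (edgeR adjusted p = 0.000665).

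The regulator that rose was CD59, which blocks pore assembly on the cell surface and was named after its value was seen, at 1.43-fold (edgeR adjusted p = 0.0378). It did not pass without control replicate 2 or 3 or without any of the knockout libraries in turn, at adjusted p from 0.0696 to 0.118. CD46, the membrane cofactor of factor I, stood at 261 ± 50.1 and 268 ± 7.68 CPM and did not pass. Among 9 complement receptors 2 were tested, and ITGAM, a subunit of complement receptor CR3, rose from 0.28 to 1.36 CPM (edgeR adjusted p = 0.00394). That rests on 28 counts over the controls and 150 over the knockout libraries. ITGB2, the other subunit of CR3, named after its value was seen, had 0 and 14 counts and was not tested. C5AR1, a receptor of C5a, did not pass (log2 fold change 0.59 ± 0.53 SE; edgeR adjusted p = 0.404).

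**Figure D4:**
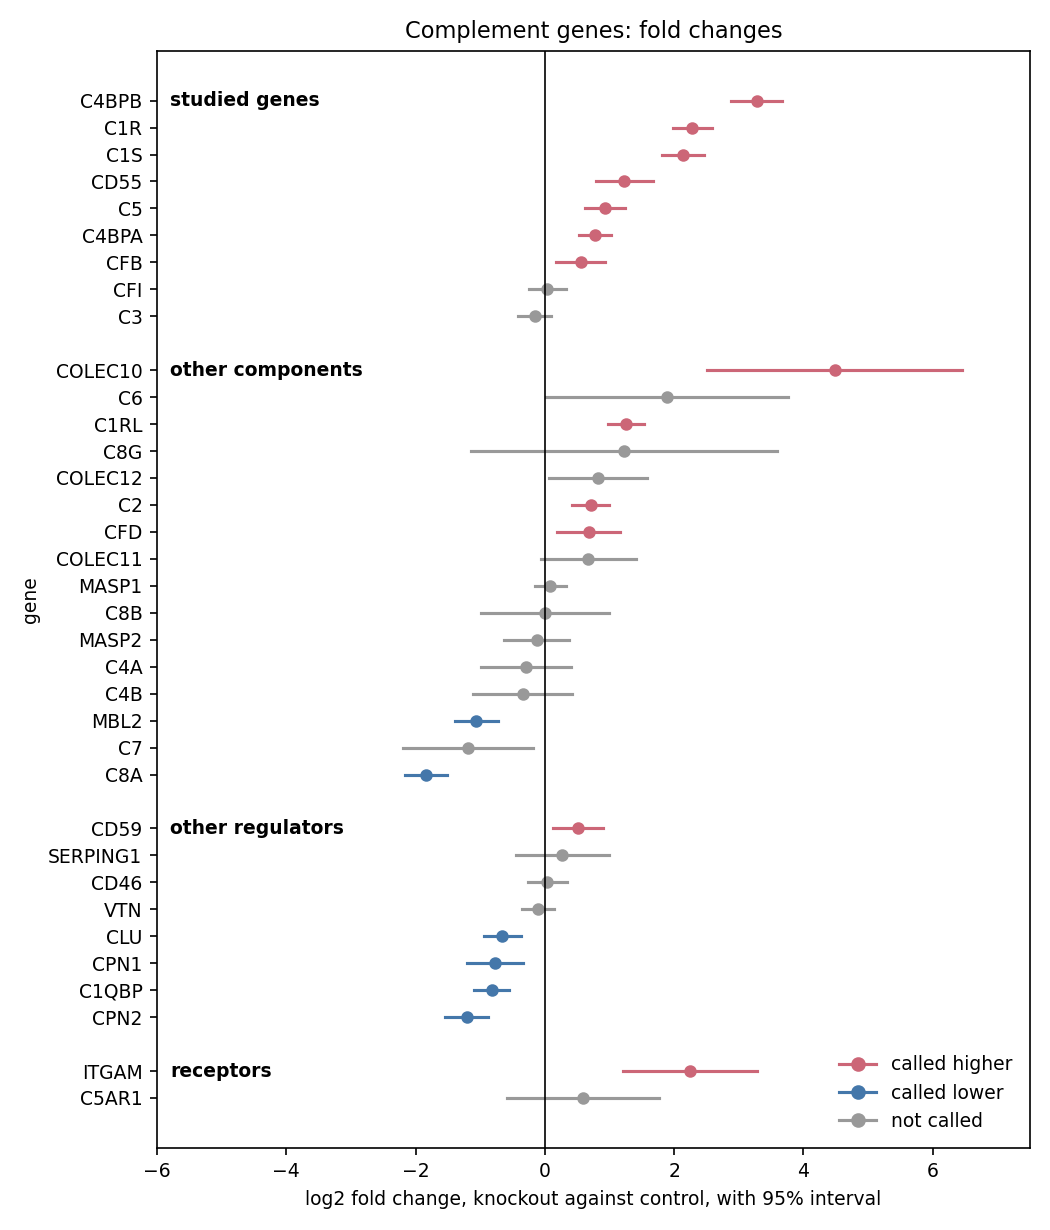
Log2 fold change of knockout against control with its 95% interval for the 9 studied genes and 26 other complement genes, grouped by role and coloured by the edgeR call. The whole interval lies to the right of 0 for 7 of the studied genes, and to the left of 0 for 4 of the other regulators shown.

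Receptors, kinases, transcription factors and inhibitors of routes known to act on complement genes in liver were examined as a further list of 22. All were tested, of which 9 rose, 5 fell and 8 did not pass, beside 21.1% higher and 19.0% lower among all genes tested. Several genes of the interleukin-6 and interferon-gamma routes were among those that rose, though IFNGR2, named after its value was seen, did not pass. STAT3, which carries the interleukin-6 signal, had 90.1, 93.2 and 81.6 CPM in the controls and 280, 264 and 258 CPM in the knockout and rose 3.03-fold (edgeR adjusted p = 5.18e-06). SOCS3, a feedback inhibitor that STAT3 induces, rose 5.14-fold from 1.08 ± 0.536 CPM, and IRF1, a factor induced by interferon, rose 5.54-fold (edgeR adjusted p = 0.000514 and 5.69e-06). The kinases JAK1 and JAK2 rose 2.21-fold and 2.47-fold and IFNGR1 2.41-fold. The interleukin-6 receptor chains IL6R and IL6ST rose 1.43-fold and 1.76-fold. The highest edgeR adjusted p of these 5 genes was 0.00845.

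The liver factors FOXA2 and HNF4A fell 2.15-fold and 1.81-fold (edgeR adjusted p = 0.000836 and 0.000191). IL1R1 and RELA were called lower as well. IL1R1 lost its call with library size alone, with upper-quartile scaling, with the replicate number as a block (adjusted p = 0.0510) and without any of the knockout libraries in turn, and RELA with library size alone, with cyclic loess and without knockout replicate 1. CEBPA, CEBPB and CEBPD, factors of the acute-phase response, did not pass, at log2 fold changes of 0.029, −0.038 and 0.079. Nothing here links any of these genes to a complement gene beyond their levels in the same 6 libraries.

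**Figure D5:**
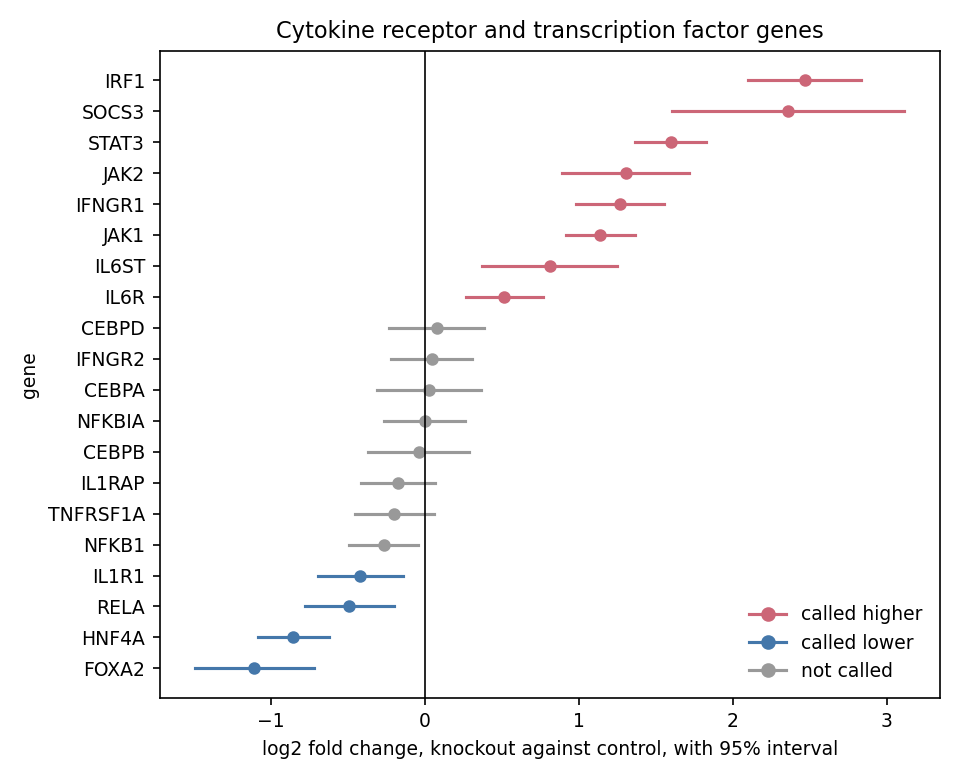
Log2 fold change of knockout against control with its 95% interval for 20 genes of cytokine receptors, kinases, transcription factors and inhibitors of routes known to act on liver complement genes. IRF1, SOCS3 and STAT3 lie farthest to the right and FOXA2 and HNF4A farthest to the left.

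The change in the members was also set beside that of their nearest protein-coding neighbours outside the set, a comparison chosen after the members' values were known. Of 12 such neighbours 11 were tested, of which 5 rose (C1RL, C2, PFKFB2, TRAF1 and CNTRL), 2 fell (LPCAT3 and NELFE) and 4 did not pass. Over all genes tested, 21.1% were called higher and 19.0% lower. Neighbours were taken by the distance between gene edges. PFKFB2, a regulator of glycolysis beside C4BPB on the side away from C4BPA, rose by 1.15 ± 0.17 (SE) on the log2 scale (edgeR adjusted p = 0.000629), against 3.27 for C4BPB. C5 has CNTRL (0.54 ± 0.18) and TRAF1 (0.55 ± 0.18) at its sides, both smaller than its own 0.93. Other neighbours matched or exceeded a member. PFKFB2 was also the nearest gene outside the set on that side of C4BPA (0.78 ± 0.11) and CD55 (1.23 ± 0.20). C2, beside CFB, had 0.71 ± 0.13 against 0.55 ± 0.17 for CFB (SE).

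Some genes that mark other cell types moved with the groups, and their part in the complement results was not tested. C1R, C1S and C3 are also made by fibroblasts. The summed level of 8 fibroblast and stellate cell markers was 1.93 to 3.04 CPM in the controls and 10.6, 26.5 and 8.86 CPM in knockout replicates 1, 2 and 3. Of these 8 genes 4 were tested and 3 rose. LUM had 23 to 36 counts in the controls and 141 to 200 in the knockout, and PDGFRB 26 to 38 and 125 to 149. The collagens COL1A1 and COL3A1 had 165 and 262 counts in knockout replicate 2 and at most 30 in any other library. DCN and POSTN were at 0 in all controls. Without knockout replicate 2 the log2 fold changes of C1R, C1S and C4BPB were 2.32, 2.19 and 3.30, as large as with it, and among the 9 genes CFB lost its call. LUM and PDGFRB were higher in all 3 knockout libraries, so leaving out 1 of them does not remove the difference in these markers.

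Macrophage markers summed to 509 to 578 CPM in the controls and 220 to 240 CPM in the knockout, nearly all of it from CD68 and LYZ, while CD5L and VSIG4 were at 0 in every library. Of these 10 markers 5 were tested, 2 rising (MARCO and CSF1R) and 2 falling (CD68 and LYZ). PTPRC, CD163 and TYROBP were at 0 in all controls and were not tested. They had 18, 11 and 6 counts in knockout replicate 2, the library with the most collagen counts, and at most 7 in any other library. MARCO had 0 counts over the control libraries and 124 over the knockout libraries, which set against the same floor is 36.5-fold higher. CSF1R had 3 counts and 88. Endothelial markers summed to 54.7 to 70.6 CPM in the controls and 31.2 to 35.5 CPM in the knockout, mostly PECAM1, with TEK at 0 in every library. Lymphocyte markers summed to at most 0.252 CPM, with CD2, MS4A1 and NKG7 at 0 in every library.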

How the data were processed

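RNA-seq counts of 6 Huh7 libraries were used. Per the labels' protocols, RNA came from a Qiagen Rneasy kit and was sequenced as SMARTER mRNA-Seq libraries. The deposited values are raw counts per gene, made by the authors; hg19 is named as genome build, per the submitters' processing notes. Not given in the sources used here are the aligner, counting tool, annotation and use of strand, so overlapping, antisense and paralogous genes can share reads. Columns were matched to samples by their descriptions. Of 25202 rows, 19974 have Ensembl IDs, 19883 of them matched to a symbol; 5228 rows are loci added by the authors' pipeline and stayed in library sizes and tests.

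Counts were tested in R 4.3.3 with edgeR 4.0.16 (filterByExpr, TMM, quasi-likelihood test, group as the single term, Benjamini-Hochberg over 16331 genes). SE is the log2 fold change divided by the root of F. Ratios within libraries had 0.5 counts added and an exact permutation test. Log2 CPM for likeness had a prior count of 2, over genes averaging at least 3 on that scale. The floor for a group at 0 was 3 counts, and folds set against it leave out counting error in the other group. Counting intervals (95%, exact) cover counting error only. Exon lengths came from GENCODE 29 and promoters from RefSeq on GRCh38.p14, a build other than the authors'. The test was also run on simulated counts, where it missed most of the smallest changes and some calls were false. Libraries of 1 group differed by a chi-square of 9.43 or more per degree of freedom, so all 6 were counted. Same-numbered libraries of the groups did not deviate together (correlations of 0.042, −0.071 and −0.073).

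The members, lists and tests were chosen with earlier results of these data known. Named were all members, called genes of the other lists with a log2 fold change of at least 1 in size, the 4 next by p in each list, and for the members at both ends of the fold changes the 2 genes of most similar pattern. C1QA, C4A, C4B, C9, CD46, CD59, CEBPA, CEBPB, CEBPD, IL1R1 and RELA lie outside that rule and were named after their values were seen. Some genes that the rule or the lists name, and 1 motif searched, are not reported here, though counts over a list include them. Alternatives were other scalings (DESeq2 size factors, upper quartile, library size alone), other filters (none, or 1 CPM in 3 libraries), DESeq2 1.42.0, limma-voom (limma 3.58.1), a replicate block, no added loci, a threshold of 0.01 on the adjusted p, and fits without each library in turn. Cyclic loess with limma-trend was added after seeing the data. Figures used matplotlib 3.10.9.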

Additional observations from a re-analysis of the deposited data

How the results depend on the processing

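Of the 9 members, 6 or 7 were called higher and 0 lower under all 17 alternatives, the loss of CFB making the difference. C1R, C1S, C4BPA, C4BPB, C5 and CD55 kept their direction and call in all 16 alternatives that gave a fold change. Ranges without 1 library were 2.16 to 2.34 for C1R, 2.01 to 2.26 for C1S, 3.13 to 3.40 for C4BPB, 0.77 to 1.00 for C5, 0.71 to 0.82 for C4BPA and 1.00 to 1.495 for CD55 on the log2 scale. CFB ran from 0.42 to 0.70 without 1 library and lost its call in 4 of those fits and with cyclic loess (0.38). C3 turned to 0.027 with library size alone and to 0.13 with cyclic loess; CFI ran from −0.066 to 0.14 without 1 library, below 0 without control replicate 2 or 3. The cause of these changes was not tested. Library size alone and upper-quartile scaling moved the all-gene median (log2) to 0.24 and 0.16, from 0.053 with TMM. The share of higher calls among all called genes was 52.7% with TMM, 64.4% for the upper quartile and 72.1% for library size alone.

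Other complement genes were called higher in 4 to 7 cases and lower in 6 to 8 without 1 library, against 6 and 8 with all, and in 4 to 9 and 5 to 9 over all alternatives, with 9 and 9 by limma-voom. At an adjusted p below 0.01, 5 were called lower, in place of 8, as the stricter threshold implies. With the replicate number as a block 7 members rose and 0 fell, and of the other complement genes 6 rose and 7 fell. Over all genes 5739 were called with the block and 6548 without. The samples share only a number, and no sample pair of the same number deviated together. Within replicate numbers, the C4BPA to C4BPB log2 ratio change stays at −2.51 by construction, since pairing cannot alter a difference of means. Only the p-value could differ, at 0.25 in a sign-flip permutation test, the smallest that 3 pairs allow. That change ran from −2.69 to −2.32 without 1 library. The C1R to C1S change ran from 0.035 to 0.21 without 1 library. Depth limits the genes with few counts, COLEC10, C9 and ITGAM, more than any member.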
